A study of Mus musculus with 28 samples.

Results

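The genes described here encode the subunits, assembly factors and activators of the proteasome, in mouse liver. They were taken as the rows whose symbol starts with Psma, Psmb, Psmc, Psmd, Psme or Psmg followed by a number. Of the 33856 gene rows used, 52 matched, and 51 of these had at least 1 transcript molecule in either of the deposited tables. Of the matching rows, 45 are named subunits, activators or assembly factors of the general or immune forms, 2 are tissue-restricted 20S forms (Psma8 and Psmb11), and 5 are no subunit (4 pseudogene rows and Psmc3ip).

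The proteasome is the protease that degrades proteins tagged with ubiquitin. Its 20S core is a barrel of alpha and beta rings, and its 19S cap holds a ring of ATPases that unfold substrates and a lid that removes the ubiquitin chain. Cells exposed to interferon, and many immune cells at rest, replace the catalytic beta subunits Psmb5, Psmb6 and Psmb7 with Psmb8, Psmb9 and Psmb10, which gives the immunoproteasome and changes the peptides made for MHC class I presentation. In the liver, hepatocytes near the central vein (pericentral) and near the portal triad (periportal) do different metabolic work, and sinusoidal endothelial cells, Kupffer cells (the resident macrophages) and lymphocytes line and fill the blood spaces between them.

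The livers came from C57BL/6 male mice fasted for 2 hours, and the labels name no engineered allele and no treatment beyond anaesthesia. Single non-parenchymal cells came from 11 libraries of 2 mice aged 3 and 4 months. Pairs, each a hepatocyte with an attached CD31+ cell (CD31 is an endothelial surface protein), came from 17 libraries of 3 mice aged 6 or 7 weeks. Both were made with MARS-seq, which sorts cells into wells and counts mRNA molecules by unique molecular identifiers (UMIs) at the 3' end. The study was built to place endothelial cells along the lobule through the hepatocyte each is attached to.

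The pair table held 4621 wells with 2423 to 49311 gene UMIs (median 10450) and the one of single cells held 3720 wells with 60 to 5529 (median 526.5). No source ties a well to a mouse, so each table is 1 sample: there is no test between mice, and every interval below is a 95% counting interval and covers no difference between animals. Levels are UMIs per 1000000 gene UMIs, and since a molecule is counted once whatever its length, they were not divided by gene length. A pair's position was read from 13 pericentral and 12 periportal landmark genes, none of them a proteasome gene, and of the 4620 pairs kept the outer tertiles (1540 each) were the pericentral and periportal zones. Glul, a pericentral landmark, had 14655 UMIs in pericentral and 1953 in periportal pairs. The single-cell mice were older than the pair mice, so age and cell preparation cannot be told apart when values of both tables stand side by side.

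Most proteasome genes had higher levels pericentrally, and those of the immunoproteasome, as a sum, did not. Summed over the matching rows, their level was 4445 pericentral and 3540 periportal, a ratio of 1.26 (log2 0.33). Of the 46 genes whose UMIs in both zones came to 30 or more, 29 were at least 1.2-fold higher pericentrally and 0 periportally, beside 27.6% and 14.1% of all 11430 genes. Their median log2 ratio was 0.30, with a range of -0.16 to 0.72, against 0.09 for all genes, whose middle 50% ran from -0.11 to 0.29. Above 0 were 42 of the 46, beside 62.2% of all genes. Among genes with at least 1000 UMIs, 27 of 39 proteasome genes passed the fold, beside 24.0% of all 3864.

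The scaling bears on these counts. Serum protein genes were lower pericentrally, with Alb and 9 other hepatocyte genes at 110911 per 1000000 against 167785, so they took up less of the total there. With the 20 most abundant genes left out of the total, the median of all genes became -0.03 and that of the proteasome genes 0.19, and 15 proteasome genes passed the fold beside 18.0% of all genes. With DESeq2 size factors or TMM factors it was 16, beside 20.1% and 20.2%. A scaling shifts every gene by the same amount, so the distance of the proteasome genes from the median of all genes is the same in each, while the number past a fixed fold is not. With pairs split at the median score instead of into tertiles, 15 passed beside 20.8% of all genes.

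**Figure D1:**
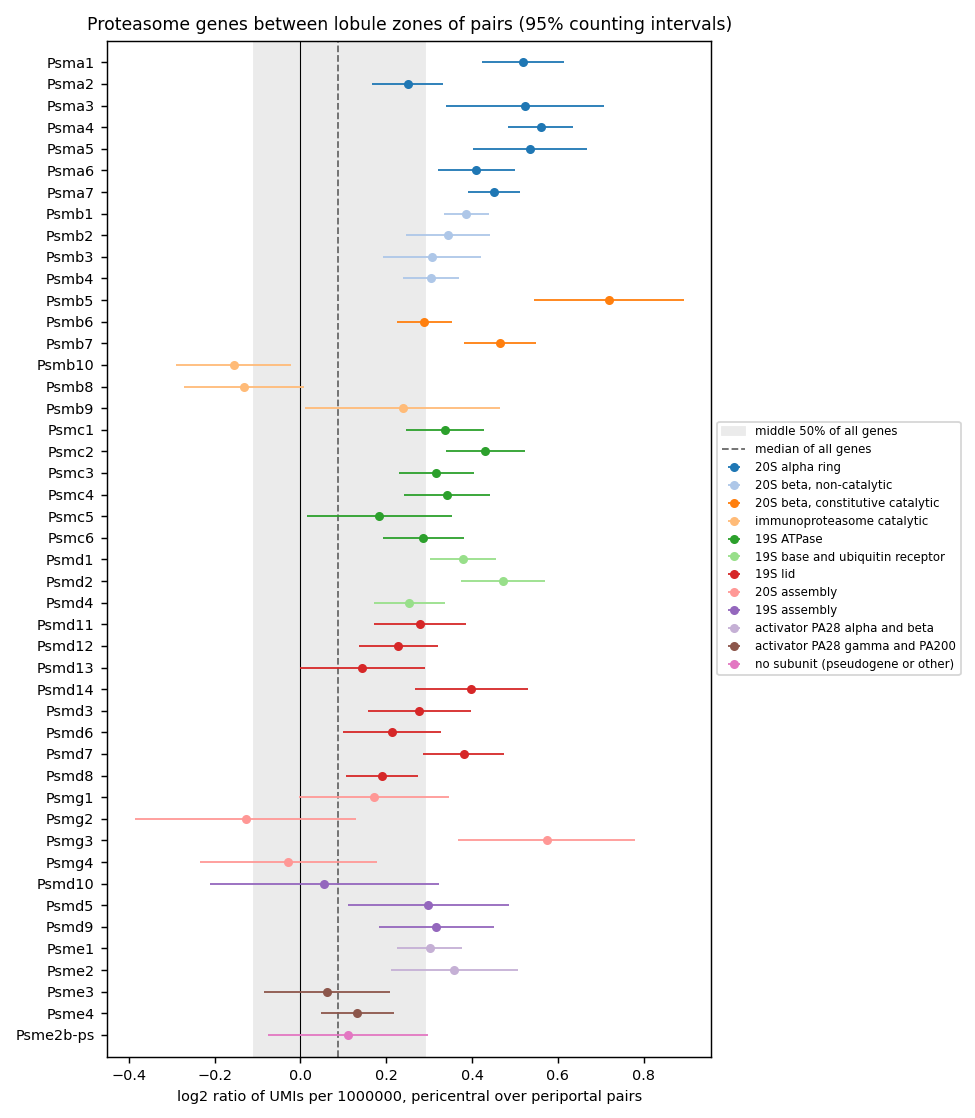
Log2 ratio of UMIs per 1000000 between pericentral and periportal pairs for the 46 proteasome genes tested, coloured by role, with 95% counting intervals. The dashed line is the median of all genes (0.09) and the grey band their middle 50%. Psmb5 (0.72) lies furthest to the right, while Psmb10 (-0.16) and Psmb8 (-0.13) lie left of 0.

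The alpha ring, the gated entrance of the 20S barrel, had the steepest zone ratio of the subunit groups. All 7 genes were above 0 and 6 passed the fold, with a summed level of 924 pericentral and 676 periportal (log2 0.45, interval 0.42 to 0.48). Psma4 was at 185 against 126 (log2 0.56, interval 0.48 to 0.64) and higher pericentrally in 16 of 16 blocks. A block is a run of consecutive well numbers, and no source says that it is a plate, a library or a mouse. For every block value, the zones were the outer tertiles of that block's own pairs. Their limits therefore differ between blocks, whose median scores ran from 0.368 (block 4) to 0.669 (block 10). Psma5 was at 60.3 against 41.6 (log2 0.54) and higher pericentrally in 15 of 16 blocks. Psma2, at log2 0.25, was the alpha gene under the fold.

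The non-catalytic beta subunits Psmb1 to Psmb4 had log2 ratios of 0.31 to 0.39, and all 4 passed the fold with the main scaling. Of the ATPases Psmc1 to Psmc6, which thread the substrate into the core, 5 of 6 passed, with Psmc2 at 0.43 and Psmc5 at 0.18. The scaffold subunits of the 19S base, Psmd1 and Psmd2, were at 0.38 and 0.47, and the ubiquitin receptor Psmd4 at 0.25. In the lid, 4 of 8 passed the fold, from the deubiquitinase Psmd14 at 0.40 down to Psmd13 at 0.14. Taken as a set, 24 of the 31 constitutive 20S and 19S subunits passed the fold with the main scaling, beside 27.6% of all genes. Fewer passed with the other scalings. Above 0 were 31 of 31, with a summed log2 ratio of 0.36. That sum was positive in each of the 16 blocks of at least 30 pairs, from 0.25 to 0.71 (median 0.32), the highest being in the block of 67 pairs, the smallest of the 16.

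The catalytic subunits divide into the constitutive ones, which had more UMIs pericentrally, and the inducible ones, which as a sum did not. The 120 bases before the transcript start that the promoter table uses are printed for a pair of genes of each kind because these genes encode alternative subunits for the same sites in the barrel (Psmb5 and Psmb8 for the chymotrypsin-like site, Psmb6 and Psmb9 for the caspase-like site). Sequences are from RefSeq, build GRCm38.p6, 5' to 3' along the gene: Psmb5 at chr14:54617996-54618115 (minus strand), Psmb8 at chr17:34198075-34198194 (plus), Psmb6 at chr11:70525237-70525356 (plus) and Psmb9 at chr17:34187331-34187450 (minus). Capitals mark matches to TGACNNNGC, the core of the antioxidant response element bound by the proteasome regulators Nfe2l1 and Nfe2l2, and, in Psmb8, to TTCNNNGAA, the core of a STAT site.
Psmb5: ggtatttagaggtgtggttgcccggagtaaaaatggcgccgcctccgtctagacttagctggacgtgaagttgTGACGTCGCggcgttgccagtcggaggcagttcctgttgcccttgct
Psmb8: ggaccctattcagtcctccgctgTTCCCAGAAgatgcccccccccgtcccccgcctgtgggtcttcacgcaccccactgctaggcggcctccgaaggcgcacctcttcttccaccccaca
Psmb6: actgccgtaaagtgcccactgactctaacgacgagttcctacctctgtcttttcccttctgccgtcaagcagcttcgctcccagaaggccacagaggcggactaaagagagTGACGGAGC
Psmb9: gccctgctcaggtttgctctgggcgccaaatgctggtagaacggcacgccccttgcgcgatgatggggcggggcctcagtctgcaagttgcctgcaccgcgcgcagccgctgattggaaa

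The motifs TGACNNNGC and TTCNNNGAA, and the interferon-stimulated response element (GAAA, any 2 bases, GAAA), were searched for on both strands in the 250 bases before the start, and 38 of the 45 named genes had an entry in that table. TGACNNNGC was in 4 of 27 promoters of 25 constitutive 20S and 19S subunits (Psmb5, Psmb6, Psmc6 and Psmd12), or 14.8%, beside 10.2% of all 32851 promoters, and in 0 of 6 promoters of the immunoproteasome and PA28 alpha and beta genes. TTCNNNGAA was in 1 of those 6 (Psmb8), beside 7.02% of all promoters. The interferon-stimulated response element was in 0 of the 6, in 2 of the 27 (Psmb3 and Psmd4) and in 2.98% of all promoters. Counted from the start the promoter table uses, the match in Psmb5 lies 47 to 39 bases before it, that in Psmb6 9 to 1, and that in Psmb8 97 to 89. For Psmb6 that start lies inside the gene's annotated span, which begins at 70525324 on chromosome 11, so the last bases of its window and the match are within the annotated gene. Such matches describe letters in the window and are no evidence of binding. Psmb9, Tap1, Psmb8 and Tap2 lie next to each other on chromosome 17, within the MHC.

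Psmb5, the chymotrypsin-like subunit, had 725 UMIs in pericentral and 433 in periportal pairs, or 37.8 and 23.0 per 1000000. Its log2 ratio was 0.72 (interval 0.55 to 0.89), the largest of the proteasome genes with at least 100 UMIs, and it was higher pericentrally in 15 of 16 blocks. Psmb7, the trypsin-like subunit, had 2789 and 1986 UMIs (145 and 105 per 1000000, log2 0.47, interval 0.38 to 0.55). Psmb6, the caspase-like subunit and the most abundant of the catalytic genes, had 4288 and 3450 (224 and 183, log2 0.29). Psmb6 and Psmb7 were higher pericentrally in 16 of 16 blocks. Summed, these 3 genes stood at 407 against 311 per 1000000.

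The inducible counterparts had fewer UMIs as a group and, except Psmb9, were not higher pericentrally. Psmb8 had 812 pericentral and 875 periportal UMIs, or 42.3 and 46.4 per 1000000, with a log2 ratio of -0.13 (interval -0.27 to 0.01). Psmb10 had 871 and 954 (45.4 and 50.6, log2 -0.16, interval -0.29 to -0.02). Psmb9 had 354 and 295 (18.5 and 15.6, log2 0.24, interval 0.01 to 0.47), but was at -0.18 when each pair was thinned to 1000 UMIs. Blocks were divided for each: pericentrally higher were 7 of 16 for Psmb8, 8 of 16 for Psmb10 and 11 of 16 for Psmb9. Together the 3 inducible genes had 2037 and 2124 UMIs (log2 -0.08, interval -0.17 to 0.00), and none passed the fold in either direction.

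Measured along 6 layers of 770 pairs from the portal (1) to the central (6) end, the alpha ring and the constitutive catalytic genes were higher in each layer than in the one before. The alpha ring stood at 656, 696, 776, 828, 870 and 980 per 1000000, and the constitutive catalytic genes at 306, 316, 344, 370, 378 and 437. The last step, into layer 6, was the largest for both. Over the same layers the immunoproteasome genes stood at 111, 114, 113, 113, 108 and 105, within a narrow band and lowest at the central end. Psmb5 alone went from 21.3 in layer 1 to 42.6 in layer 6, and Psmb8 from 48.6 to 39.9. The median pair held 10065 to 10818 UMIs in every layer, so depth differed little between them. The sum of all matching rows went from 3446 to 4628, a log2 ratio of 0.43 that was 0.27 with the 20 most abundant genes out of the total.

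**Figure D2:**
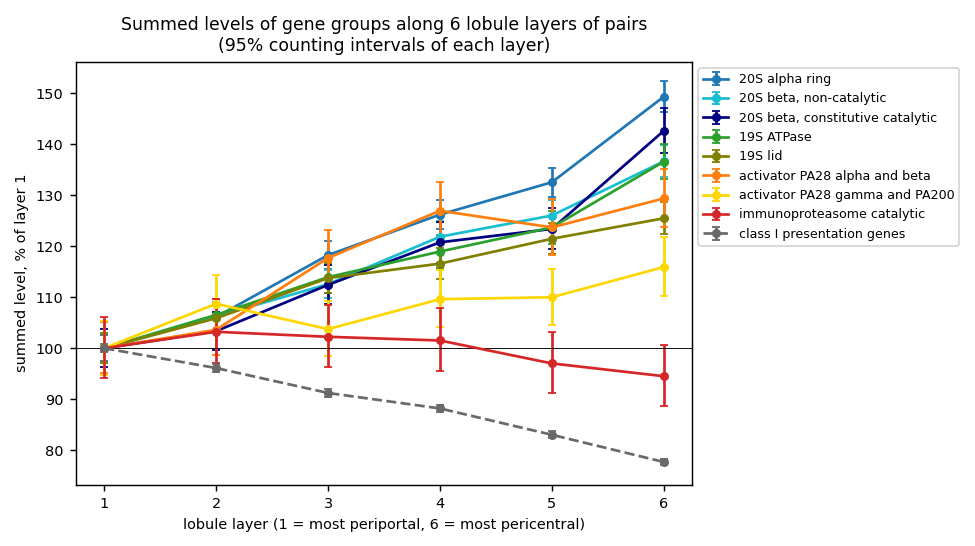
Summed level of each gene group in 6 lobule layers of pairs, as a percent of its level in layer 1, with 95% counting intervals. The alpha ring goes from 656 to 980 per 1000000 and the constitutive catalytic genes from 306 to 437, the immunoproteasome genes stay between 105 and 114, and the class I presentation genes go down from 7406 to 5755.

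The balance of the catalytic genes does not depend on the scaling, since it is a share within the same pairs. Psmb8, Psmb9 and Psmb10 made up 23.6% of the UMIs of all 6 catalytic genes over all pairs. The share was 20.7% (interval 19.9 to 21.5) pericentrally and 26.6% (25.6 to 27.6) periportally. By layer it was 26.6%, 26.6%, 24.8%, 23.3%, 22.2% and 19.4% from the portal to the central end. It was lower pericentrally in 15 of 16 blocks, the exception being block 6 with 24.3% against 24.2%. Over whole blocks the share lay between 18.4% and 27.7%, so blocks differed among themselves by more than the zones did. A share of 3' UMIs is not a share of protein, and unequal capture of the 6 transcripts was not tested.

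The active sites did not share this equally. Psmb8 held 66.9% of the UMIs of Psmb8 and Psmb5 periportally and 52.8% pericentrally, and by layer it went from 69.5% to 48.3%. Psmb10 held 32.4% and 23.8% of its pair with Psmb7. Psmb9 held 7.88% and 7.63% of its pair with Psmb6, with intervals that overlap (7.03 to 8.79 and 6.88 to 8.43).

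**Figure D3:**
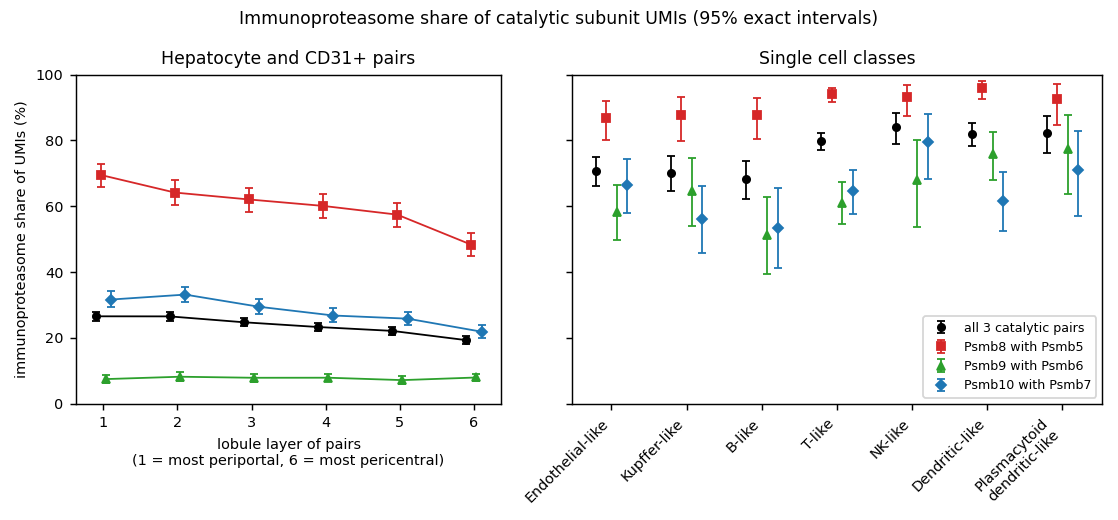
Share of immunoproteasome genes among catalytic subunit UMIs, in percent with exact 95% intervals: left by lobule layer of pairs, right by class of single cells, for all 3 catalytic pairs (black) and each pair. In pairs the total share goes from 26.6% in layer 1 to 19.4% in layer 6, while Psmb9 with Psmb6 stays near 8%. In the single-cell classes the total lies between 68.3% and 84.0%.

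**Figure D4:**
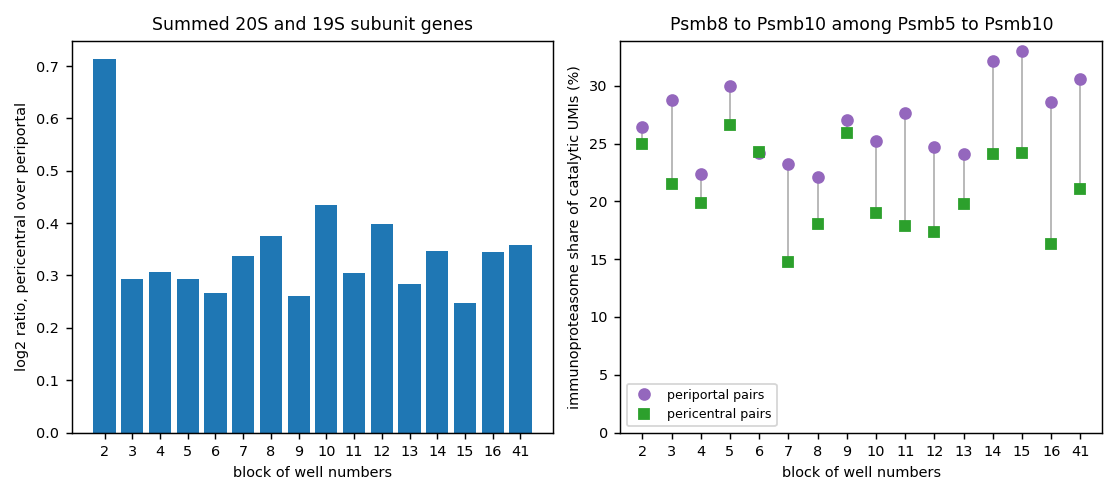
Zone differences within 16 blocks of well numbers: left, log2 ratio of the summed constitutive 20S and 19S genes, and right, the immunoproteasome share of catalytic UMIs in periportal (circles) and pericentral (squares) pairs. Zones here are the outer tertiles of each block's own pairs. All bars are above 0 (0.25 to 0.71), and the pericentral share is the lower in 15 of 16 blocks.

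Each pair also holds the RNA of its endothelial cell. By 12 endothelial markers that RNA was 2.38% of pair UMIs (1.89% to 3.03% from marker to marker), and the marker sum was 572 per 1000000 pericentrally and 664 periportally. At the level of endothelial-like single cells, it would hold 10.9% of the Psmb8, 19.3% of the Psmb9 and 7.44% of the Psmb10 UMIs in pairs. With that part taken off, the share of immunoproteasome genes was 19.2% pericentral and 24.7% periportal, and their log2 ratio -0.07. The marker lists of Kupffer cells (197 and 217 UMIs), T cells (53 and 20), monocytes (25 and 32), dendritic cells (81 and 74), B cells (11 and 4) and NK cells (1 and 2) had few UMIs in pairs, and Cd79a, Trac, Cd8a and Ncr1 were at 0. Lists with more were plasmacytoid dendritic cells (3270 and 3104, led by Bst2), plasma cells (4687 and 4609, led by Xbp1) and neutrophils (399 and 358, led by Lcn2), while their markers Cox6a2, Retnlg, Csf3r and Cxcr2 were at 0. The cholangiocyte markers had 41 and 322 UMIs. Without the 168 pairs that held 2 or more UMIs of 55 immune markers (the lists of Kupffer, monocyte, T, NK, B, dendritic and plasmacytoid dendritic cells, without Bst2, Naaa, Cd74 and the H2 genes; plasma cell and neutrophil lists were not used), 28 proteasome genes passed the fold and the log2 ratio of the immunoproteasome genes was -0.09.

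The activators divided by kind. PA28 alpha and beta (Psme1 and Psme2), the interferon-inducible caps that speed peptide release, both passed the fold, with a summed level of 209 against 168. Psme1 had 3142 and 2507 UMIs (log2 0.30) and was higher pericentrally in 15 of 16 blocks. Psme2 had 862 and 661 (log2 0.36), but was higher in 10 of 16 blocks. It stood at 0.07 when zones cut within each block replaced those cut over all pairs. Psme2b-ps, a near-identical copy of Psme2, had 502 and 457 UMIs (log2 0.11, under the fold). How reads divide between them is uncertain, and so is the zone call of Psme2. The nuclear activators were flatter: Psme3 (PA28 gamma) had 787 and 741 UMIs (log2 0.06) and Psme4 (PA200) 2382 and 2137 (log2 0.13, interval 0.05 to 0.22), neither past the fold. Pericentrally higher were 11 of 16 blocks for Psme3 and 16 of 16 for Psme4. Psme3 was below 0 under each of the 3 other scalings.

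Assembly factors were mixed. Psmg3, a chaperone that builds the alpha ring, was at 25.5 against 17.1 (log2 0.57, interval 0.37 to 0.78) and higher pericentrally in 16 of 16 blocks. Its partner Psmg4 was at log2 -0.03 and changed sign under 9 alternatives, and Psmg2 was at -0.13 (interval -0.39 to 0.13). Of the 19S chaperones, Psmd5 and Psmd9 were at 0.30 and 0.32 and Psmd10 at 0.06, which was below 0 under the 3 other scalings.

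The counts for other genes of the pathway stand beside the 27.6% of all genes past the fold pericentrally and 14.1% periportally. Of the proteasome-associated genes, 5 of 8 passed pericentrally and 0 periportally (median log2 0.35). They were the ubiquitin receptor Adrm1 (log2 0.76, 322 against 187 UMIs), the inhibitor Psmf1 (0.57), the deubiquitinase Usp14 (0.46), the small lid subunit Shfm1 (0.37) and the assembly factor Pomp (0.34). Among ubiquitin genes and shuttle factors 5 of 13 passed pericentrally and 0 periportally (median 0.25), a share not far from that of all genes, with the shuttle Ubqln2 at 0.50 and the unfoldase Vcp at 0.41, and with Ddi2, the protease that activates Nfe2l1, at -0.08. Of 5 regulators, Nfe2l2 was at 0.37, and Nfe2l1, which drives proteasome genes when the proteasome is inhibited, at 0.19. Irf1 and Nlrc5, which act on class I and immunoproteasome genes, passed the fold periportally, at -0.36 (251 against 316 UMIs, interval -0.60 to -0.11) and -0.38 (43 against 55, interval -0.99 to 0.22, which spans 0). At the level of endothelial-like cells, endothelial RNA would hold 26.3% of the Irf1 and 27.5% of the Nlrc5 UMIs in pairs, and endothelial markers were higher periportally; its part in these ratios was not tested.

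Of 9 genes of class I presentation, 3 passed the fold periportally (H2-K1 at -0.41, H2-D1 at -0.33 and B2m at -0.28), beside 14.1% of all genes, and 0 pericentrally. The summed level was lower pericentrally in 16 of 16 blocks (log2 -0.29), and most of its UMIs are those of B2m, H2-K1 and Calr. The peptide transporter genes Tap1 and Tap2, neighbours of Psmb8 and Psmb9, had 206 against 203 and 203 against 191 UMIs, and the peptide trimmer Erap1 and the loading factor Tapbp were at log2 0.07 and 0.18. Endothelial RNA was not taken off from these genes, and its part in their ratio was not tested.

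Single non-parenchymal cells were grouped into classes without using any proteasome gene. Wells with at least 300 UMIs numbered 2692 (median 710 UMIs). The classes of at least 50 cells, named from markers, were 881 endothelial-like, 703 T-like, 281 B-like, 238 Kupffer-like, 213 NK-like, 156 dendritic-like and 111 plasmacytoid dendritic-like cells. In NK-like cells 8 of the T markers were also raised, and 6 monocyte markers in the main dendritic-like cluster. Proteasome genes made up 0.561% of UMIs, from 0.419% in endothelial-like to 0.770% in dendritic-like cells, the classes with the lowest and highest median depth (565 and 1384 UMIs). The part of depth in that difference was not tested. In pairs the proteasome genes made up 0.4002%.

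As a sum, immunoproteasome genes outnumbered their constitutive counterparts in every one of these classes. Their share of catalytic UMIs was 84.0% (interval 78.9 to 88.3) in NK-like, 82.4% (76.1 to 87.5) in plasmacytoid dendritic-like, 82.0% (78.3 to 85.3) in dendritic-like and 79.8% (77.1 to 82.3) in T-like cells. It was 70.6% (66.0 to 74.9) in endothelial-like, 70.1% (64.5 to 75.3) in Kupffer-like and 68.3% (62.3 to 73.8) in B-like cells. Intervals overlapped within the first 4 and within the last 3 classes, and not between these sets. That division did not hold for each catalytic pair: Psmb10 held 66.4% of its pair with Psmb7 in endothelial-like, 61.7% in dendritic-like and 64.5% in T-like cells, and Psmb9 held 64.8% of its pair with Psmb6 in Kupffer-like and 61.1% in T-like cells. Psmb8 held at least 86.8% of its pair with Psmb5 in each class, but other pairs were nearer to equal parts. In B-like cells Psmb9 held 51.3% (39.6 to 63.0) and Psmb10 53.5% (41.3 to 65.5). In Kupffer-like cells Psmb10 held 56.1% (45.7 to 66.1). The 26 hepatocyte-like wells held only 12 catalytic UMIs, 8 of them inducible, a share of 66.7% (34.9 to 90.1). That interval is wide but lies above the 23.6% of pairs, and the cause of the difference was not tested.

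The T-like class was not uniform. Its cluster led by Cxcr6 (448 cells) had a share of 83.5%, and its cluster led by Tcf7 (255 cells) 69.3% (63.2 to 74.9). The mast cell genes Tpsb2, Cpa3 and Cma1 were also among the 10 leading genes of the Tcf7 cluster, and its Alb level was 6555 per 1000000 against 2152, a trace of hepatocyte RNA whose part in the difference was not tested. Over the classes, Alb stood at 4.16% to 8.94% of its level in pairs. With hepatocyte RNA taken off at that rate, the shares were 69.8% in B-like, 71.8% in Kupffer-like, 73.6% in endothelial-like, 80.8% in T-like, 82.6% in dendritic-like, 83.2% in plasmacytoid dendritic-like and 85.0% in NK-like cells. The wells fall into a pair of ranges of well numbers, and the share in endothelial-like cells was 68.5% in one and 73.3% in the other, that in T-like cells 80.4% and 77.6%, and that in plasmacytoid dendritic-like cells 87.3% and 78.7%. In the first range the intervals of Kupffer-like (63.5 to 77.7) and T-like cells (77.4 to 83.2) overlapped. In the second range those of endothelial-like (66.3 to 79.5) and T-like cells (71.4 to 83.0) overlapped. The classes therefore divided into separate sets in neither range.

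Psmb8 was the most abundant inducible gene in each class. It had 125 UMIs in endothelial-like cells, or 207 per 1000000 (interval 173 to 247), and 305 in Kupffer-like, 441 in B-like, 707 in NK-like, 720 in plasmacytoid dendritic-like, 726 in T-like and 857 in dendritic-like cells. Psmb9 stood at 139 in endothelial-like and 162 to 210 in B-like, Kupffer-like, T-like and NK-like cells, and at 388 and 400 in plasmacytoid dendritic-like and dendritic-like cells, with intervals above those of T-like cells. Psmb10 stood at 151 in endothelial-like cells and was highest in plasmacytoid dendritic-like (351) and NK-like (339) cells. Of the constitutive genes, Psmb5 had 6 to 31 UMIs per class, with overlapping intervals (31.5 per 1000000 in endothelial-like and 62.5 in B-like cells). Psmb6 was at 99.3 to 154 and Psmb7 at 76.3 in endothelial-like and 172 in dendritic-like cells.

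Against endothelial-like cells, the immune-like classes together had 6 of 47 proteasome genes at least 2-fold higher, beside 22.6% of all genes, and 1 lower, beside 17.8%. Their median log2 ratio was 0.42, against 0.03 for all genes, and 38 of the 47 were above 0. The share past the fold was below that of all genes in both directions. By class the median lay between 0.22 (B-like) and 0.51 (plasmacytoid dendritic-like), against -0.34 (dendritic-like) to 0.01 (T-like) for all genes. The 3 largest ratios were those of Psme2b-ps (log2 2.12), Psme2 (1.99, 197 against 49.8 per 1000000) and Psmb8 (1.61, 633 against 207). Psmg4 (1.39), the beta ring subunit Psmb3 (1.36) and Psme1 (1.16) were the other genes past the fold. The 3 smallest were those of Psmd9 (-1.26, 22 UMIs against 18), the lid subunit Psmd7 (-0.65) and the lid subunit Psmd3 (-0.50). The gene Psme2b-ps is a near-identical copy of Psme2, so how reads divide between them is uncertain and so are both values.

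By class, at least 2-fold higher were 12 of 40 tested genes in NK-like (17.7% of all genes), 11 of 40 in dendritic-like (18.4%), 9 of 36 in plasmacytoid dendritic-like (16.6%), 7 of 44 in T-like (21.2%), 5 of 39 in B-like (16.0%) and 4 of 40 in Kupffer-like cells (13.4%). At least 2-fold lower were 5 in plasmacytoid dendritic-like (34.2% of all genes), 2 in B-like (31.2%), 1 in dendritic-like (32.4%), 1 in Kupffer-like (26.3%), 0 in NK-like (30.7%) and 0 in T-like cells (22.7%). Psme2 was past the fold in all 6 classes, Psmb8 and Psmb3 in 5, and Psme1 in 4.

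Among activators, Psme1 stood at 224 per 1000000 in endothelial-like, 271 in B-like, 355 in Kupffer-like, 458 in T-like, 572 in NK-like, 606 in plasmacytoid dendritic-like and 883 (interval 774 to 1003) in dendritic-like cells. The dendritic-like interval met none of the other 6 but that of plasmacytoid dendritic-like cells (467 to 774), which it touches. Psme2 went from 49.8 in endothelial-like to 359 in dendritic-like cells. Psme4 ran the other way, at 79.7 in endothelial-like and 139 in Kupffer-like but 33.7 in dendritic-like and 33.3 in B-like cells, on 8 to 48 UMIs in these 4 classes. Psme3 lay between 36.4 and 98.0, with 7 to 67 UMIs.

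**Figure D5:**
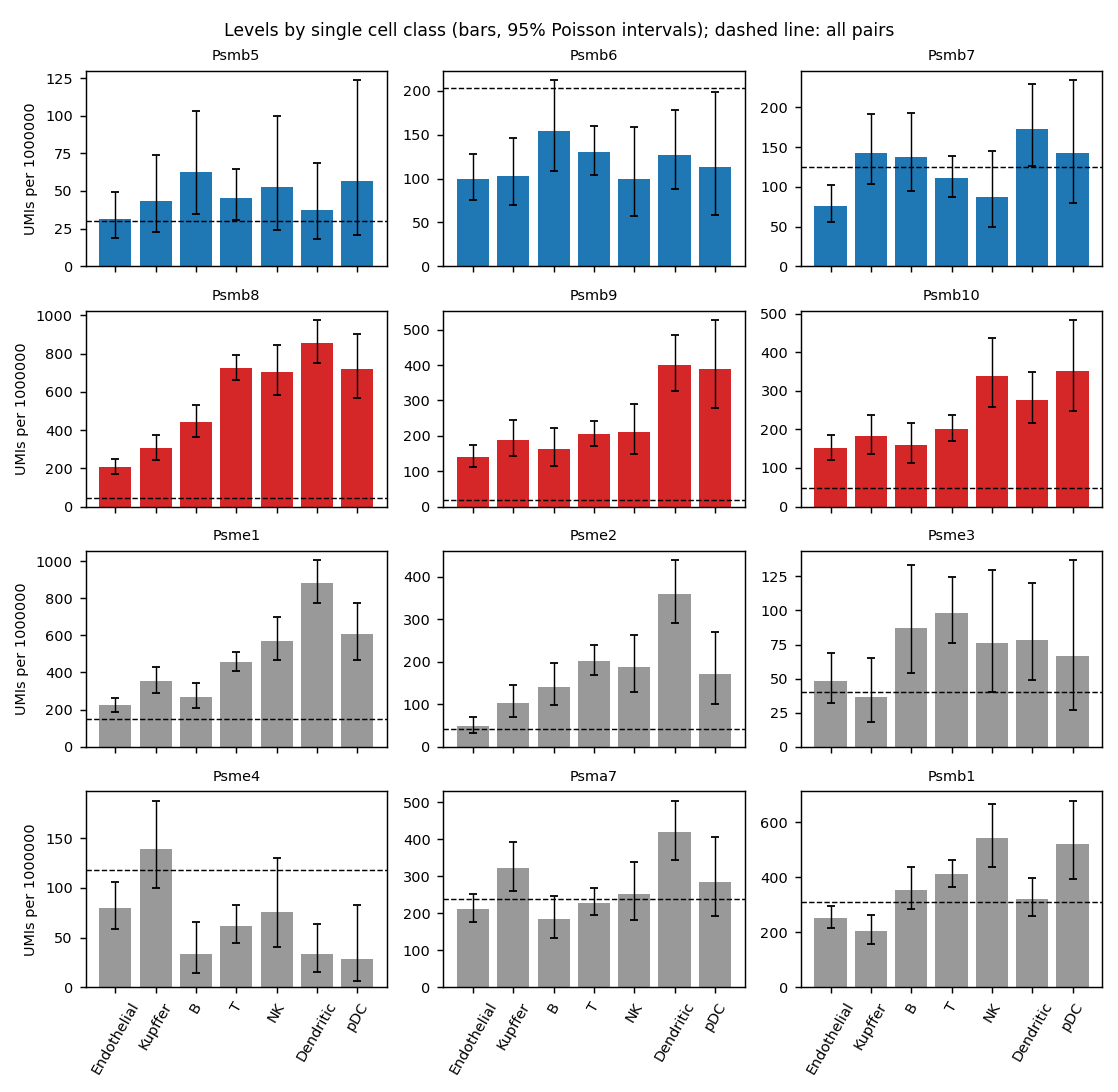
Level per 1000000 gene UMIs of the catalytic genes, the activators and the subunits Psma7 and Psmb1 in 7 classes of single cells (bars, 95% Poisson intervals), with the level over all pairs as a dashed line. Psmb8 goes from 207 in endothelial-like to 857 in dendritic-like cells and Psme1 from 224 to 883, and for Psmb8, Psmb9 and Psmb10 every bar is above the dashed line.

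In single cells the other genes of the pathway gave few calls over all immune-like cells. Of the class I presentation genes 0 of 9 passed the fold in either direction, with Tap1 at log2 0.67 and H2-K1 at 0.44. Of the regulators Nlrc5 was higher (1.58), and Nfe2l1 (-1.53) and Nfe2l2 (-1.38) were lower than in endothelial-like cells. Rps27a, which encodes ubiquitin fused to a ribosomal protein, was the 1 ubiquitin gene past the fold (1.87).

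The remaining rows had few or no UMIs. The testis form Psma8 and the non-subunit Psmc3ip had 21 UMIs each over all pairs, Psmb5-ps and Psmb7-ps2 had 1 each, and Psmb6-ps was at 0 in both tables. Psmb11, the catalytic subunit of the thymus, was at 0 in pairs but had 56 UMIs in 51 single-cell wells, with 15 UMIs in endothelial-like and 15 in T-like cells. It lies next to Psmb5 on chromosome 14, and whether those molecules arose from Psmb11 itself was not tested.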

How the data were processed

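Both deposited tables give UMI counts for each symbol in each well, which by their values the authors did not normalize. Per the labels' protocols, livers were dissociated by collagenase perfusion and 3' libraries were made with MARS-seq. Per the submitters' processing notes, bcl2fastq 2.15.0.4 and the build mm9 were used. Aligner, counting tool and annotation: not given in the sources. The 92 spike-in rows (52.8% of single-cell and 0.715% of pair UMIs) and 68 rows whose symbols differ in letter case only were left out. Gene UMIs totalled 2659761 in single cells and 56976156 in pairs, and 0 well names were shared.

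Genes, lists, landmarks and alternatives were chosen with earlier results of these data known. Wells carry no mouse or library, so the planned edgeR test could not be made and each table was 1 sample. Pairs needed at least 1000 UMIs and 20 landmark UMIs (1 was left out). The score was the pericentral share of landmark UMIs, each set divided by its mean over pairs, with zone limits at 0.652 and 0.307 and 1067 pairs within 0.05 of a limit. Ratios have exact conditional binomial intervals, levels Poisson and shares Clopper-Pearson intervals, all at 95% and for counting error only. Blocks are runs of well numbers, 17 in all (16 with at least 30 pairs), and are not stated to be libraries. Within each block the zones were the outer tertiles of that block's own pairs. Directions per gene come from blocks holding 10 or more of its UMIs in those zones. Wells of single cells with 300 or more UMIs were kept (1028 left out), scaled to 1000 UMIs and clustered with leidenalg 0.10.2 (30 components, 2000 genes, 15 neighbours, resolution 1.0); clusters were named from at least 3 markers raised 2-fold. No doublet caller was run on these sorted wells. Genes named in full were Psmb5 to Psmb10, Psme1 to Psme4, the 4 largest and 4 smallest zone ratios among genes with at least 100 UMIs, and the 3 largest and 3 smallest immune-like ratios; other pathway genes were to be the 2 furthest from 0 each way, and others printed, such as the examples within a role, were chosen after their values were seen. Scaling factors were from edgeR 4.0.16 (TMM) and DESeq2 1.42.0. The ratio code was tested on simulated counts.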

Additional observations from a re-analysis of the deposited data

How the results depend on the processing

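No paired analysis was possible because the wells name neither an animal nor a library, and for the same reason no replicate could be left out. For the zones, the 29 genes at least 1.2-fold higher pericentrally became 16 with DESeq2 size factors, 16 with TMM, 15 without the 20 most abundant genes in the total and 15 when the median score divided the pairs, and lay between 24 and 33 in the other alternatives (28 to 30 with 1 block left out, chosen after seeing the data). The 0 periportal calls became 2 with the outer sixths of the score. Without the 20 most abundant genes in the total, Psmb10 passed the fold periportally (log2 -0.27). Without the 20 most abundant genes the median log2 ratio was 0.19, that of the summed immunoproteasome genes -0.20 and that of layer 6 over layer 1 was 0.27. These shifts follow from the construction of a scaling. Of the 46 genes, 40 kept their sign in the 29 alternatives run; Psmd10, Psme3 and Psme2b-ps changed it under a scaling, Psmg4 under 9 other settings, and Psmb9 and Psmd11 when pairs were thinned. For the thinning the cause was not tested.

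For the immunoproteasome share in single cells, each catalytic pair alone differed from the sum, and the cause was not tested. Psmb8 with Psmb5 gave 87.6% in B-like, 95.8% in dendritic-like, 86.8% in endothelial-like, 87.6% in Kupffer-like, 93.1% in NK-like, 92.7% in plasmacytoid dendritic-like and 94.1% in T-like cells. Psmb9 with Psmb6 gave 51.3% in B-like, 75.9% in dendritic-like, 58.3% in endothelial-like, 64.8% in Kupffer-like, 67.9% in NK-like, 77.4% in plasmacytoid dendritic-like and 61.1% in T-like cells. Psmb10 with Psmb7 gave 53.5% in B-like, 61.7% in dendritic-like, 66.4% in endothelial-like, 56.1% in Kupffer-like, 79.5% in NK-like, 71.2% in plasmacytoid dendritic-like and 64.5% in T-like cells. With cells thinned to 300 UMIs the share was 87.4% in dendritic-like and 83.3% in T-like cells, and the cause was not tested. With cells of at least 500 UMIs, 2 and not 4 genes were 2-fold higher in Kupffer-like cells. Depth limits single genes in the single cells: Psmb5 had 6 UMIs in plasmacytoid dendritic-like cells, and its intervals overlapped among the classes.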
